A study of Mus musculus with 6 samples.

Results

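Adhesive and matricellular glycoproteins are secreted molecules that sit between the structural fibres of the matrix and the cell surface. The 10 genes described here are Fn1, Postn, Tnc, Thbs1, Thbs2, Vcan, Tnxb, Sparc, Prg4 and Comp. They were chosen by gene symbol in the array's platform annotation, with earlier results of these data known. They are 10 genes of the 30702 that had a probe set of their own, and each had 1 such probe set. The cells were bone marrow stromal cells (BMSCs) of 18-month-old mice, called aged here, and of 3-month-old mice, called young here, with 3 arrays for each age. Strain and sex are not given in the labels used here, and all 6 samples had the same handling: collagenase digestion of crushed femurs, a sort for cells positive for Sca-1 and CD29 and negative for CD45 and CD11b, and culture with a passage before RNA was taken. The samples are therefore a cultured, selected fraction of the marrow stroma and not freshly isolated tissue. The labels call the arrays biological replicates but do not state that each stands for a different mouse. The p-values then describe only how much these arrays vary, which may be technical.

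Fibronectin assembles into fibrils through its integrin receptor and gives other matrix proteins a scaffold. Matricellular proteins such as periostin, the tenascins, the thrombospondins and SPARC do not carry load themselves and instead tune adhesion, growth factor activity and collagen fibril assembly. Versican, a large chondroitin sulfate proteoglycan, binds hyaluronan, and lubricin, the product of Prg4, lubricates joint surfaces. In marrow and bone several of these proteins are products of the stromal and osteoblast lineages, though not of these alone. Periostin and some others are known to rise in connective tissue under repair or load.

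Aged cells had much more signal for 5 of the 10 genes: Postn, Vcan, Prg4, Thbs1 and Thbs2 were higher by 1.63, 1.57, 1.52, 1.40 and 1.40 on the log2 scale. The other 5 genes, among them Fn1 and Sparc, differed by less than 0.3 on that scale in either direction. By limma on all genes with a Benjamini-Hochberg adjusted p under 0.05, 7 of the 10 rose, 2 fell (Fn1 and Tnc) and 1 (Tnxb) was not called. In the same comparison 18.4% of the 20187 genes tested rose and 22.1% fell, so that 40.6% were called in all. A rise of at least 1 on the log2 scale was made by 2.04% of all genes tested. The members' median difference was 0.82 on the log2 scale, beside 0.01 for all genes tested. That median falls in the gap between the 5 large rises and the other 5 genes, and no member lies near it. The labels name no culture or hybridisation batch, and an effect of batch cannot be told apart from one of age.

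**Figure D1:**
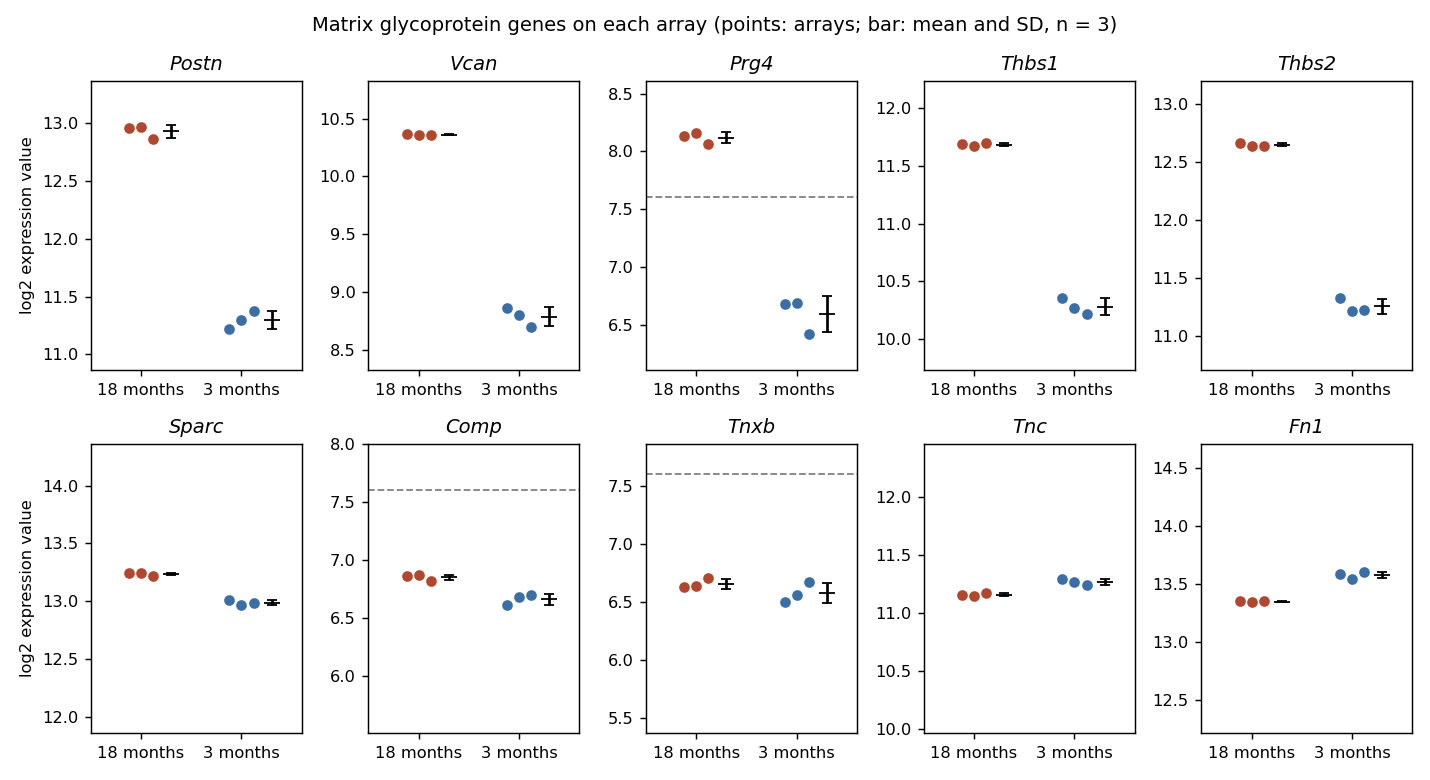
The deposited log2 expression value of each of the 10 genes on each array, with 18-month-old cells left of 3-month-old cells. Points are arrays, the bar beside them is the mean with its SD (n = 3), every panel spans the same range of the log2 scale, and the dashed line, drawn where it falls within a panel, marks 7.61, below which 95% of the negative control probe sets lie. The ages are far apart for Postn, Vcan, Prg4, Thbs1 and Thbs2, close for Sparc, Comp, Tnc and Fn1, and overlap for Tnxb.

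Levels are the authors' log2 expression values. They were read against the array's negative control probe sets, 95% of which had a mean below 7.61. A gene with a mean below that value in either age is given by its levels and its log2 difference, with no fold. By this measure 7 of the 10 genes were above the negative controls in both ages, Prg4 in aged cells only, and Comp and Tnxb in neither. All 10 passed the filter on low values, a mean over the 6 arrays at or above the median of all transcript probe sets. Probe sets differ in how strongly they bind, so levels are not compared between genes. The label of the cells was checked on their markers. Itgb1 (CD29) was bright at 11.76 in aged and 11.86 in young cells. The excluded surface proteins had low signals in aged and young cells, 3.62 and 3.65 for Ptprc (CD45), 5.24 and 5.26 for Itgam (CD11b). Ly6a (Sca-1) was not analysed here. The stromal genes Pdgfrb, Col1a1 and Col1a2 were bright in both ages, from 11.51 to 13.22, whereas the stromal markers Thy1, Eng, Nt5e and Lum lay within the range of the negative controls in both. Of 9 stromal markers tested 5 rose and 1 fell (Nt5e). Vcam1 rose 2.01-fold and Cxcl12, a chemokine of marrow stroma, by 2.25 on the log2 scale, while Dcn, at 7.90 in aged and 7.83 in young cells, was not called (limma, adjusted p = 0.354).

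Periostin and versican had large rises and were above the negative controls in both ages. Postn, whose product binds integrins and collagen and is abundant in the periosteum, read 12.96, 12.96 and 12.86 on the aged arrays and 11.22, 11.30 and 11.38 on the young arrays. Every aged array was above every young array. The means were 12.93 ± 0.06 in aged and 11.30 ± 0.08 in young cells (SD, n = 3 each), a 3.09-fold rise (limma, adjusted p = 2.25e-08). Vcan read 10.37, 10.36 and 10.36 on the aged arrays, against 8.86, 8.80 and 8.70 on the young arrays. The aged arrays lay within 0.01 of their mean, 10.36, and the young ones were spread about 8.79 with an SD of 0.08 (n = 3 each). The rise was 2.98-fold (limma, adjusted p = 1.97e-08). The probe set reads the gene as a whole, so the splice forms of versican, which differ in how many chondroitin sulfate chains they carry, are not told apart.

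The proximal promoters of the members with the large rises are shown because these rises were of similar size. Whether the genes share regulation was not tested. The 250 bases before the start site were taken from RefSeq promoter entries (build GRCm38.p6), which list Postn, Vcan and Thbs2 among the 5 genes with the large rises. They are written 5′ to 3′ on the strand of the gene. Capitals mark matches to any of 6 motifs searched on both strands. The motifs are the TATA box (TATAAA), the CCAAT box (CCAAT), the GC box (GGGCGG), the AP-1 site (TGANTCA), the TEAD site (CATTCC) and the interferon-stimulated response element, or ISRE (GAAA, any 2 bases, GAAA). For Postn, for which 2 start sites are listed, the window is chr3:54360857-54361106 on the plus strand, for Vcan chr13:89742513-89742762 on the minus strand, and for Thbs2 chr17:14694263-14694512 on the minus strand.
Postn: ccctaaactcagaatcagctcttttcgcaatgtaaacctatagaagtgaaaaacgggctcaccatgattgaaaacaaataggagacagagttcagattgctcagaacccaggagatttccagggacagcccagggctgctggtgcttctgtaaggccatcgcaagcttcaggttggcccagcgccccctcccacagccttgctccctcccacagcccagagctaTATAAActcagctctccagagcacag
Vcan: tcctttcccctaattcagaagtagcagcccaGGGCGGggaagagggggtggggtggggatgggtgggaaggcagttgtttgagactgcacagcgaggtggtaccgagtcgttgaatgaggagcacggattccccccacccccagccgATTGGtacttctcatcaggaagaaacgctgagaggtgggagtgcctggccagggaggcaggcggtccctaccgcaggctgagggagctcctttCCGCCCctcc
Thbs2: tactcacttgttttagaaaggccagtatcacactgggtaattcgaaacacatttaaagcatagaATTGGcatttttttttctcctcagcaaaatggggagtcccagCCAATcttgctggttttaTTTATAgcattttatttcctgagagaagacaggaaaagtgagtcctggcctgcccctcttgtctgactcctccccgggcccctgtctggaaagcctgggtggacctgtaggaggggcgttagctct
Postn holds a TATA box that begins at position -26, counted back from the start site. Vcan holds a GC box at -219, another on the opposite strand at -10 and a CCAAT box on the opposite strand at -103. Thbs2 holds CCAAT boxes at -186 (opposite strand) and -144, and the TATA letters on the opposite strand at -126. The other Postn window held none of the 6 motifs.

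The members with small or no differences and a listed promoter were Sparc, Tnc and Tnxb. The Sparc window is chr11:55420081-55420330 on the minus strand. It is shown as an example of a window with none of the 6 motifs, as was also seen for the other Postn window. Because it was picked for that trait, it says nothing on a link between motifs and the size of a difference.
Sparc: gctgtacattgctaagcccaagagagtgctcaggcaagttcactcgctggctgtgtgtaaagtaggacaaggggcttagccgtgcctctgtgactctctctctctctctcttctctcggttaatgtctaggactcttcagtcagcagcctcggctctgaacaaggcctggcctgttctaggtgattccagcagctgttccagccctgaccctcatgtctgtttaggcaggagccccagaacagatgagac
Tnc held a GC box and the letters TATAAA, the latter at -205 or -126 depending on which of its 2 listed start sites is used. The window with these letters at -205 also holds TATATAAG nearer to the start site, which the search for TATAAA did not count. Tnxb held an AP-1 site at -55. No window of a member held the TEAD site or the ISRE. Of 32851 promoter windows of this length, 12.4% held the TATA box, 33.8% the CCAAT box, 32.7% the GC box, 6.75% the AP-1 site, 12.6% the TEAD site and 2.98% the ISRE. No motif was found in all 3 of the Postn, Vcan and Thbs2 windows. A match describes these letters and not a bound site.

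The thrombospondins Thbs1 and Thbs2 encode closely related trimeric glycoproteins that bind CD47 and, in the case of thrombospondin 1, release active TGF-beta from its latent form. Thbs1 read 11.69, 11.67 and 11.69 on the aged arrays and 10.36, 10.27 and 10.22 on the young arrays. Thbs2 read 12.66, 12.64 and 12.65 on the aged arrays, against 11.33, 11.21 and 11.22 on the young ones. For neither gene did the ages overlap. Thbs1 rose 2.64-fold (limma, adjusted p = 1.97e-08) and Thbs2 rose 2.63-fold (adjusted p = 1.33e-08), with SDs of 0.01 in aged cells and 0.07 and 0.06 in young cells (n = 3 each).

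The 95% intervals of the log2 difference were 1.31 to 1.49 for Thbs1 and 1.32 to 1.48 for Thbs2. The per-array log2 difference between these genes shifted by 0.0037 between the ages, less than its SD of 0.01 over the aged arrays and 0.03 over the young arrays. This is a description, since an exact permutation test of 3 against 3 arrays cannot give a p below 0.1. The same measure was computed for 3 other family pairs that include Comp or Tnxb, and it is not read here because those genes lay within the range of the negative controls in both ages.

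Comp, the pentameric member of the thrombospondin family known from cartilage and tendon, read 6.86, 6.87 and 6.82 on the aged arrays and 6.61, 6.68 and 6.70 on the young arrays. The ages did not overlap, both means lay within the range of the negative controls, and the difference of 0.19 on the log2 scale passed the test (limma, adjusted p = 0.0136). It did not pass without aged replicate 1 or without aged replicate 2, with adjusted p = 0.0617 and 0.0656. The antigenomic background probe sets, which match no mouse sequence, were higher in aged cells by 0.01 to 0.29, and the difference of Comp lies within that span. Other genes of the family, named after their values were seen, gave a mixed picture. Thbs3 was at 8.09 ± 0.01 in aged and 7.54 ± 0.11 in young cells (SD, n = 3 each) and rose (limma, adjusted p = 6.71e-05). Thbs4 was at 6.09 and 6.01, within the negative control range (adjusted p = 0.411).

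Prg4 encodes lubricin and is known from the surface cells of cartilage and from synovium. It read 8.13, 8.16 and 8.06 on the aged arrays, and 6.68, 6.69 and 6.42 on the young arrays. The aged arrays were all above the negative control range and the young arrays all within it, so the rise of 1.52 on the log2 scale has no settled fold (limma, adjusted p = 8.89e-07). Young replicate 3 was the lowest array, and the young SD of 0.16 was the widest among the 10 genes. Markers of cells that could carry Prg4 were read beside it. Of 8 tendon and synovial fibroblast markers, 5 were tested, of which 3 rose and none fell. Only Scx of the 8 was above the negative controls, at 8.23 in aged and 8.27 in young cells (adjusted p = 0.697). Mkx, Fmod and Clu, the 3 that rose, lay within the negative control range, and Fmod, the largest, was at 7.39 in aged and 5.85 in young cells. The summed linear signal of the list was 893 to 904 on aged and 674 to 703 on young arrays. Of 10 chondrocyte markers 8 were tested, 4 rose and none fell, and 2 were above the negative controls in aged cells and 1 in young cells. Sox9, the transcription factor of cartilage formation, was above them in both ages and rose 1.47-fold, while Acan and Hapln1 stayed within the negative control range. Col2a1, Col11a1 and Col9a1, named after their values were seen, also rose. Col2a1 was at 7.99 in aged and 7.57 in young cells, Col11a1 at 6.75 and 6.41, and Col9a1 at 6.92 and 6.69. Of these means only that of Col2a1 in aged cells was above the negative controls. The summed chondrocyte signal was 2193 to 2314 on aged and 1659 to 1705 on young arrays. The part of these markers in the Prg4 result was not tested, and in bulk samples more cells of a type and more RNA per cell cannot be told apart.

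**Figure D2:**
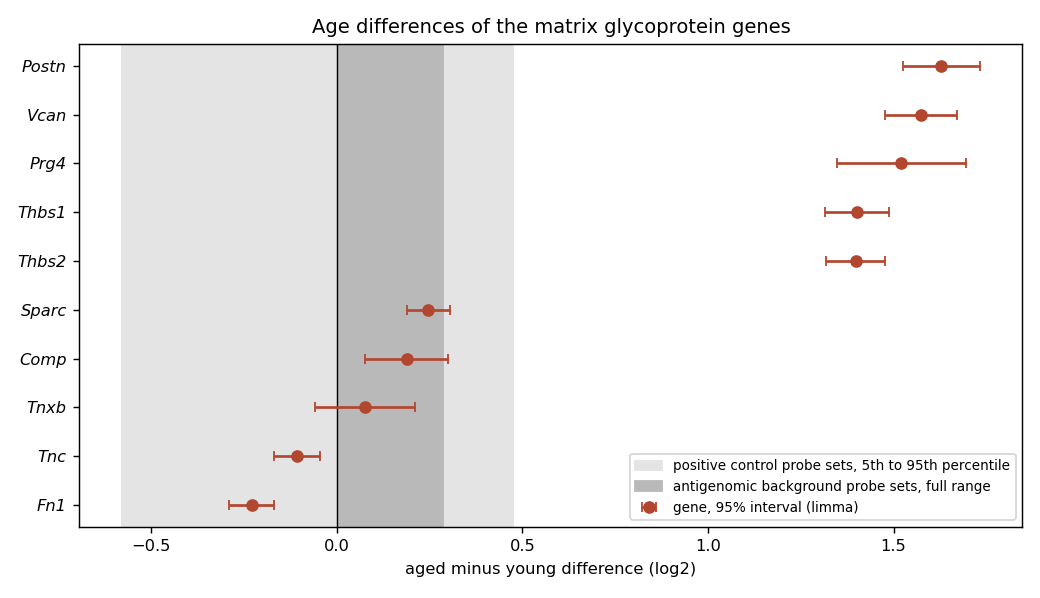
Aged minus young differences of the 10 genes on the log2 scale with their 95% intervals from limma. The light band spans the 5th to 95th percentile of the positive control probe sets (-0.58 to 0.47) and the dark band the full range of the antigenomic background probe sets (0.01 to 0.29). The intervals of Postn, Vcan, Prg4, Thbs1 and Thbs2 lie to the right of both bands, and those of the other 5 genes lie within the light band. The light band leaves out the extremes, and the negative controls are not drawn. Single positive control probe sets differed by -1.21 to 1.48. Single negative control probe sets differed by -2.36 to 1.86, which reaches past all 10 genes.

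Fn1, which encodes fibronectin, and Sparc, which encodes the collagen-binding glycoprotein osteonectin, moved little and in opposite directions. Fn1 read 13.35, 13.34 and 13.35 on the aged arrays and 13.58, 13.55 and 13.60 on the young arrays. All aged arrays were below all young arrays, and the difference of -0.23 amounts to a level 1.17-fold lower in aged cells (limma, adjusted p = 1.35e-04). Sparc read 13.24, 13.24 and 13.22 on the aged arrays, against 13.01, 12.97 and 12.99 on the young ones. It was 1.19-fold higher in aged cells, again without overlap (adjusted p = 7.03e-05). Both differences are smaller than 0.3 on the log2 scale, so a test against a difference of that size could not call either (adjusted p = 1 for each).

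These small differences can be set beside the array's control probe sets. The positive control probe sets had a median difference of -0.15 between the ages and the negative controls one of -0.26, so the decrease of Fn1 lies between their medians. The antigenomic background probe sets were higher in aged cells by 0.01 to 0.29, a span that holds the difference of Sparc. Single positive control probe sets differed by up to 1.48. Fn1 and Sparc were bright, with means from 12.99 to 13.58, and the highest value of any transcript probe set on any array was 14.56. Whether the brightness of these probe sets limited the differences was not tested. The alternatively spliced forms of fibronectin share this probe set and were not told apart.

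Neither Tnc nor Tnxb was called higher in aged cells. Tnc, which encodes tenascin C, a hexameric protein of developing and healing tissue, read 11.16, 11.15 and 11.17 on the aged arrays, against 11.29, 11.27 and 11.24 on the young ones. The decrease of 0.11, or a level 1.08-fold lower in aged cells, passed the test without overlap of the ages (limma, adjusted p = 0.0111). It did not pass after quantile normalization (adjusted p = 0.123) or median centring (adjusted p = 0.0819), nor without aged replicate 1 (adjusted p = 0.0554) or aged replicate 2 (adjusted p = 0.0596). Tnxb, which encodes tenascin X, a protein of collagen fibril spacing, read 6.63, 6.64 and 6.70 on the aged arrays and 6.50, 6.57 and 6.67 on the young arrays. The ages overlapped, both means lay within the negative control range, and the difference of 0.08 had a 95% interval of -0.06 to 0.21 (limma, adjusted p = 0.362).

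The remaining tenascin genes, also named after their values were seen, lay within the negative control range. Tnn was at 6.54 ± 0.08 in aged and 5.90 ± 0.11 in young cells (SD, n = 3 each) and rose (limma, adjusted p = 1.32e-04), whereas Tnr was at 5.68 and 5.63 (adjusted p = 0.563).

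**Figure D3:**
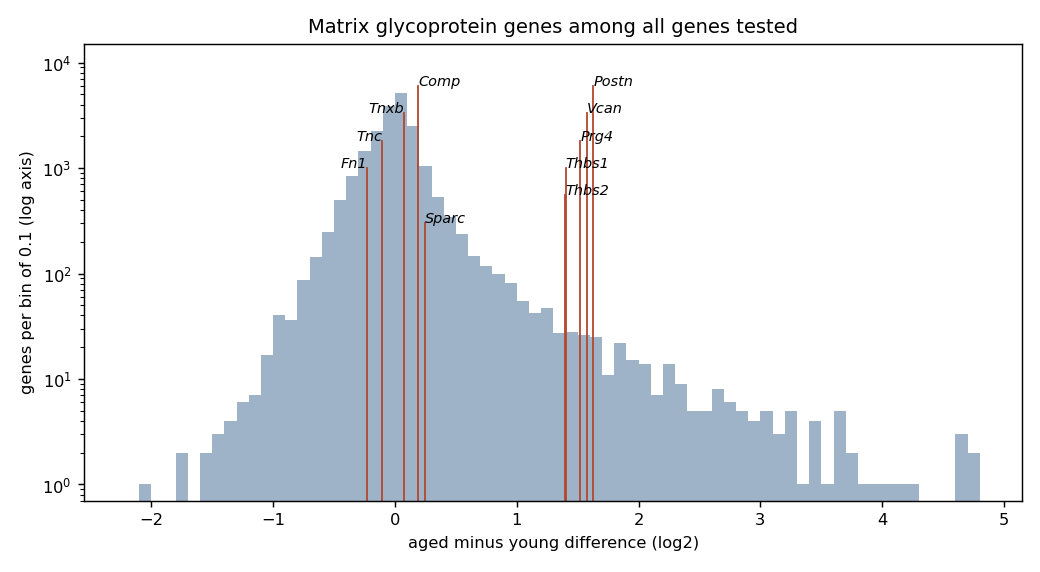
Distribution of the aged minus young difference over the 20187 genes tested, in bins of 0.1 on the log2 scale with a logarithmic count axis, and the place of each of the 10 genes. Postn, Vcan, Prg4, Thbs1 and Thbs2 lie in the right tail, while Sparc, Comp, Tnxb, Tnc and Fn1 lie in the body of the distribution.

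Among all genes tested, 0.872% had a higher difference than Postn and 1.19% a higher one than Thbs2, the lowest of the 5 large rises. For Sparc the share was 12.1%, and 14.3% of genes had a lower difference than Fn1. The groups did not overlap for 9 of the 10 genes, in 7 with the aged arrays higher and in 2 with them lower. Of all genes tested 51.3% had groups that did not overlap, 24.4% with the aged arrays all higher and 26.9% with them all lower. Against a difference of 0.3 on the log2 scale, the 5 large rises passed and no other member did. The other 5 had measured differences smaller than 0.3, so that test could not call them. Of all genes tested 5.79% passed upward and 4.04% downward. The genes nearest to Postn over the 6 arrays, by Euclidean distance of values centred on each gene's mean, were Cd248 (0.10), Slc10a6 (0.12) and Gbp8 (0.13). Cd248 encodes endosialin, a surface protein of stromal cells, and was at 9.39 in aged and 7.77 in young cells. The nearest to Fn1 were Washc5, Pdcd6ip and Hspa9, each at a distance of 0.02. With 6 arrays in 2 groups this measure reflects mostly the size of the age difference.

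The related genes that act with these proteins were read from lists of other matricellular proteins, receptors, versican partners, proteases and regulators. Of 23 other matricellular and adhesive genes tested, 10 rose, 2 fell and 11 were not called, with a median difference of 0.13. Ccn5 and Ccn2, secreted regulators of the CCN family, rose most. Ccn5 was at 10.49 ± 0.09 in aged and 8.11 ± 0.03 in young cells (SD, n = 3 each), a 5.20-fold rise (limma, adjusted p = 3.58e-09). Ccn2, known as connective tissue growth factor, rose 3.88-fold (adjusted p = 6.58e-09). Ccn4 of the same family fell, at 9.51 ± 0.02 in aged and 10.25 ± 0.08 in young cells (SD, n = 3 each; adjusted p = 1.84e-06). Vwf, the other gene called lower, lay within the negative control range at 6.34 and 6.49 and was not called with the replicate number as a block (adjusted p = 0.0716), after median centring (adjusted p = 0.0812), or without any 1 of the 3 aged arrays or young replicate 2 (adjusted p = 0.0908 to 0.149).

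Of 16 cell surface receptors tested, 10 rose and 3 fell, and the list's median difference was 0.20. Receptors of thrombospondin and fibronectin moved in both directions. Cd47, Itga5 and Sdc4, named after their values were seen, rose, Itgb1 and Itgav fell, and Itgb3 and Itgb8, within the negative control range, were not called. Cd47, a receptor of thrombospondin, was at 11.75 ± 0.01 in aged and 11.35 ± 0.02 in young cells (SD, n = 3 each; limma, adjusted p = 4.92e-06). Itga5, the integrin chain that binds fibronectin with Itgb1, was at 11.69 ± 0.01 and 11.12 ± 0.07 (SD, n = 3 each; adjusted p = 4.28e-06). Sdc4, a syndecan that also binds fibronectin, rose by 0.87 on the log2 scale. The largest rises were those of Tlr2, a pattern receptor that versican can activate, at 2.01-fold, and Egfr, at 1.97-fold. Itgav, the integrin chain shared by many receptors of fibronectin, periostin and tenascin C, fell with a difference of -0.39 (adjusted p = 1.92e-05), and Tlr4 fell by 0.30. Itgb1 fell by 0.10, a difference that did not pass after quantile normalization, after median centring, with eBayes without trend, with the replicate block or without any 1 of the 3 aged arrays or young replicate 2.

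**Figure D4:**
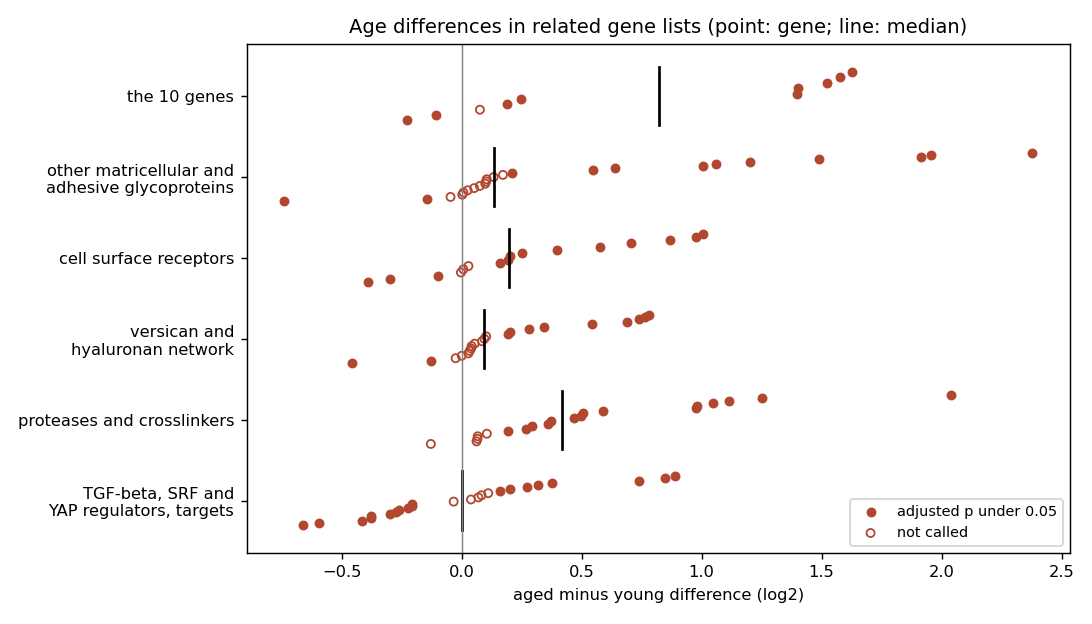
Aged minus young differences on the log2 scale of the tested genes in 6 lists, the 10 genes at the top. Filled points passed the test, open points did not, and the vertical line is the median of the list. The proteases and crosslinkers lie almost wholly to the right of 0, and the regulators are spread evenly about it.

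Genes of the versican and hyaluronan network moved both ways, 9 higher and 2 lower of 21 tested, with a median difference of 0.10. Has2, the synthase of long hyaluronan chains, was at 7.93 ± 0.03 in aged and 7.15 ± 0.09 in young cells (SD, n = 3 each), with the young mean within the negative control range (limma, adjusted p = 5.76e-06). Chst11, which sulfates chondroitin chains, rose 1.70-fold. The enzymes that start and extend those chains moved in both directions. Csgalnact2 fell by 0.46 (limma, adjusted p = 3.44e-05) and Chsy1 by 0.13 on the log2 scale. Their relatives Csgalnact1 and Chpf, named after their values were seen, rose by 0.69 and 0.28 (adjusted p = 8.63e-05 and 2.50e-04), the young mean of Csgalnact1 lying within the negative control range. Xylt1 and Xylt2 were not called (adjusted p = 0.228 and 0.420). The decrease of Chsy1 did not pass after median centring (adjusted p = 0.106), with the replicate block (adjusted p = 0.0526), or without any 1 of the 3 aged arrays or young replicate 2 (adjusted p = 0.0528 to 0.0889).

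Of 20 proteases and crosslinkers tested 15 rose and none fell, and the median difference was 0.42. Adamts1, which cleaves versican, was at 10.33 ± 0.01 in aged and 8.29 ± 0.16 in young cells (SD, n = 3 each), a difference of 2.04 (limma, adjusted p = 7.53e-08). Mmp13, a collagenase, was at 8.06 and 6.81, the young mean within the negative control range. Tgm2, a transglutaminase that crosslinks fibronectin and was named after its values were seen, rose by 1.11 on the log2 scale (adjusted p = 1.79e-07). 

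Of 24 regulators and shared targets of TGF-beta, SRF and YAP tested, 8 rose and 11 fell, and the median difference was 0.0030. The ligands Tgfb3 and Tgfb2 rose 1.85-fold and 1.80-fold. The receptor Tgfbr1 fell by 0.59 on the log2 scale and Wwtr1, which encodes TAZ, the paralogue of YAP, by 0.66 (limma, adjusted p = 8.54e-06 and 1.07e-06). Counts for all lists can be read against the 18.4% of tested genes that rose and the 22.1% that fell.

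Markers of other cells that make matrix or thrombospondin were read in the same arrays. None of 10 macrophage and 10 endothelial markers was above the negative controls in either age. Within that range, 1 of 6 macrophage markers tested rose (Cd14) and none fell. Of 7 endothelial markers tested 1 rose (Kdr) and 2 fell (Tek and Vwf). The summed macrophage signal was 599 to 605 on aged and 573 to 580 on young arrays. The summed endothelial signal was 564 to 570 on aged and 525 to 550 on young arrays. Of 6 megakaryocyte and platelet markers, whose cells store thrombospondin 1, 1 rose: Ppbp, at 8.95 in aged and 6.53 in young cells, named after its values were seen. Pf4, Itga2b, Gp9, Gp5 and Treml1 lay within the negative control range in both ages. The summed linear signal of that list was 977 to 1038 on aged and 546 to 583 on young arrays. Ppbp alone gave 490.5 to 502 on aged and 86.0 to 101 on young arrays, and the other 5 markers together gave 482 to 536 on aged and 445 to 497 on young arrays, ranges that overlap. Of 9 smooth muscle and pericyte markers tested 5 rose and 2 fell, with a summed signal of 11231 to 11455 on aged and 9151 to 9574 on young arrays. Among these Myl9 rose 2.35-fold, Tagln 1.21-fold and Acta2 1.15-fold, while Myh11 and Rgs5 lay within the negative control range in both ages. Mcam and Cnn1, picked for mention with the data in view, were the 2 markers called lower. Mcam was at 7.39 in aged and 7.63 in young cells (limma, adjusted p = 0.00201). Only its young mean was above the negative controls. Cnn1 was at 7.37 in aged and 7.60 in young cells, both within the negative control range (adjusted p = 0.0173). The part of these markers in the rises of the matrix genes was not tested.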

How the data were processed

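Expression of mouse marrow stromal cells was measured on 6 Affymetrix arrays, 3 of each age. The values are log2 expression values per probe set, as deposited by the authors; the submitters' processing notes name MAS5, and background correction, scaling and summarisation are not given in the sources used here. They were used without further scaling. Groups and replicate numbers come from the sample titles. The array medians lay between 5.37 and 5.44.

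Probe sets were named through the platform annotation, with symbols updated by gene identifier and synonym through RefSeq (GRCm38.p6): of 32750 listed probe sets 31258 had 1 gene and 1492 several, which were not used. Per gene the probe set with the highest mean was taken, a choice that arose for 441 genes. The filter on low values asked for a mean at or above the median of all transcript probe sets, and 20187 genes met it. Aged and young arrays were compared by limma 3.58.1 (R 4.3.3; lmFit, eBayes with intensity trend, Benjamini-Hochberg over all genes tested). Family pairs were compared by exact permutation tests (scipy 1.17.1), which cannot reach the threshold with 3 arrays a group and are not read. Figures were drawn with matplotlib 3.10.9, and the test across genes was tried on simulated data. Promoter sequences are RefSeq's. The number of arrays limits the precision.

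The members and gene lists were chosen with earlier results of these data known. All 10 members are named; from each related list, up to 2 called genes with the largest rise and 2 with the largest fall; the sort markers; the markers above the negative controls in both ages, given singly or within a range; and the genes nearest to the extreme members. Genes outside this rule are marked in the text, apart from markers named as lying within the negative control range. The alternatives tried were median centring, quantile normalization, leaving the filter off, a filter on the lower 70%, the mean of a gene's probe sets, eBayes without trend or robust, a replicate block, a test against 0.3, and each array left out.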

Additional observations from a re-analysis of the deposited data

How the results depend on the processing

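Over 15 alternatives, 140 of 150 values of single members kept their direction and their side of the threshold, and all of those of Postn, Vcan, Prg4, Thbs1 and Thbs2 did, with differences of 1.59 to 1.67, 1.53 to 1.61, 1.43 to 1.57, 1.37 to 1.45 and 1.38 to 1.44 on the log2 scale. Many of these alternatives could not change a direction. The filters, the mean of a gene's probe sets, the eBayes settings, the replicate block and the test against 0.3 left each member's difference as it was. Leaving out 1 array could not change the direction of the 9 members whose groups did not overlap. Tested against a difference of 0.3, 1169 genes in all were higher and 816 lower, no member was lower (0 of 2), and Fn1 (-0.23), Tnc (-0.11), Sparc (0.25) and Comp (0.19) no longer passed, as that test asks for a larger difference. Tnc did not pass after quantile normalization (-0.0626) or median centring (-0.0875), which left 1 member lower under each; the cause was not tested. Leaving out 1 array in turn gave 1 to 2 members lower, Tnc differences of -0.119 to -0.0941 and Comp differences of 0.16 to 0.21, with fewer samples in each fit. The age shift of Thbs1 minus Thbs2 ranged from -0.0136 to 0.0202 when an array was left out and so changed sign, with values of -0.00462 without aged replicate 3 and -0.0136 without young replicate 3. The difference of Scx ranged from -0.0705 to 0.0339 when an array was left out, and its sign changed without young replicate 1.

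The labels do not say whether the replicate numbers pair the arrays. Same-numbered aged and young arrays had deviations that correlated at -0.05, 0.04 and 0.04, and not every array correlated best with its own number. These deviations are taken from means of 3 arrays, so they cannot decide whether arrays of the same number were prepared together. With the replicate block 3524 genes were higher and 4204 lower, against 3724 and 4471 without it, and 7 members were higher and 2 lower in both fits. In all, 29 of 581 values of the related genes and markers no longer passed under an alternative and 1 changed sign. No detection calls were used, so signal over background rests on the control probe sets, and differences of Comp and Tnxb, whose means lie within the negative control range in both ages, are limited by it. The sum of the megakaryocyte markers without Ppbp was added after seeing the data.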

Other observations

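The spread between arrays was smaller in aged than in young cells for all 10 genes, with SDs of 0.01 to 0.06 on the aged arrays and 0.02 to 0.16 on the young arrays (n = 3 each). This was common on these arrays: 77.9% of the 20187 genes tested had a lower SD in aged cells, and the median gene had an SD of 0.04 in aged and 0.07 in young cells. The labels do not say whether the arrays of an age came from separate animals.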
